A study of Homo sapiens with 8 samples.

Results

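Mitochondrial ribosomal protein (MRP) genes were taken as every row of the gene count table whose symbol begins MRPL or MRPS followed by a number, with an optional A, B or C. The pattern found 78 genes among the 27140 rows, 49 with an MRPL symbol and 29 with an MRPS symbol, and 77 of them had enough counts to be among the 15289 genes tested. Mitochondria make the few respiratory chain proteins that their own genome encodes on a ribosome of their own, whose proteins are all encoded in the nucleus, made in the cytosol and imported. The large subunit joins amino acids and holds the exit tunnel for the new chain, and the small subunit reads the messenger RNA. Some of these proteins descend from bacterial ribosomal proteins and others are found only in mitochondria, and the subunits assemble around 2 ribosomal RNAs made inside the organelle.

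RNA was sequenced from LNCaP cells, a line of human prostate adenocarcinoma, in 4 groups of 2 libraries. The mutant rescue cells carried a hairpin against METTL3 and a hairpin-resistant, catalytically dead METTL3. The wild-type rescue cells carried the same hairpin and a hairpin-resistant wild-type METTL3, the knockdown cells the hairpin and a vector, and the control cells a control hairpin and the vector. METTL3 is the catalytic subunit of the enzyme that methylates adenosines in messenger RNA. All 4 groups were stable lines made by lentiviral infection, under puromycin at 1 µg/ml, so every group had been through infection and selection, and the promoters of the constructs and the number of clones per line are not given in the sources used here.

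Libraries held 15200343 to 17893241 counts. METTL3 stood at 333 and 334 CPM (counts scaled by library size) in mutant rescue, 309 and 325 in wild-type rescue, 26.2 and 31.3 in knockdown and 68.4 and 68.5 in control libraries, so the rescue lines were far above the control in METTL3 RNA and not at its level. The luminal prostate marker KLK3 was at 2598 to 3705 CPM in the 8 libraries, whereas the basal marker KRT5, the stromal marker COL1A2 and the leukocyte markers PTPRC and CD3E had at most 1 count in any library. Other markers of these types were present. The stromal markers COL1A1, VIM and ACTA2 had at least 1208, 106 and 51 counts in every library, and the basal marker KRT14 had 35 to 61 counts. The leukocyte marker CD14 had 1 to 5 counts per library, and the endothelial markers PECAM1 and CDH5 had 2 to 6 and 0 to 3. The basal marker TP63 had 3 and 3 counts in mutant rescue, 11 and 12 in wild-type rescue, 10 and 5 in knockdown and 1 and 1 in control libraries, and its part in any result was not tested. Nothing in the labels tells if both libraries of a group came from separate cultures, so p-values measure the spread between these libraries, and a 2 against 2 exact test of a single value could not go below p = 0.333. In bulk RNA, a difference in RNA per cell and a difference in which cells were present cannot be told apart.

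Levels of MRP genes spanned a wide range, with the middle of the distribution close together. Per length, in RPKM (counts scaled by library size and by gene length), the median of the 77 tested genes was 38.8 in mutant rescue, 40.49 in wild-type rescue, 38.5 in knockdown and 39.39 in control cells, and the upper quartile was 2.58 to 2.73 times the lower quartile. In all 4 groups the highest was MRPL41, a large-subunit protein found only in mitochondria, at 317.4 RPKM in mutant rescue, 285.7 in wild-type rescue, 251.4 in knockdown and 282.9 in control cells. The lowest of those tested was MRPS18C, one of 3 human genes related to a single bacterial small-subunit protein, at 5.665 RPKM in mutant rescue, 7.021 in wild-type rescue, 6.963 in knockdown and 6.646 in control cells. The length listed for MRPS18B, 10738 bases, is 5.688 times its exon length in GENCODE 29, so its RPKM is lower than that annotation would give. MRPS24, a small-subunit protein, was the gene left out of the test, with 0 to 2 counts per library. In the GENCODE 29 annotation 23.2% of its exon bases are shared on the same strand with the read-through gene URGCP-MRPS24, and that row was at 0 in all 8 libraries.

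Changes in single MRP genes were small: the largest log2 fold change of any member in any of the 6 comparisons had a size of 0.76. Of the 77 genes, 71 passed the test (edgeR's quasi-likelihood test, Benjamini-Hochberg adjusted p under 0.05 over all tested genes) in at least 1 comparison, 6 passed in none and none passed in all 6. The biological coefficient of variation estimated over all genes, the spread between libraries of a group beyond counting noise, was 1.4%. It describes these libraries, which are not known to be separate cultures, so it may not measure variation between cultures.

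Summed over the 77 genes, MRP RNA took 5201 and 5233 CPM in mutant rescue, 5532 and 5599 in wild-type rescue, 5340 and 5300 in knockdown and 5217 and 5219 in control libraries. Both wild-type rescue libraries were above the other 6, and the mutant rescue libraries lay on either side of the control libraries. The group means were 5217 ± 22.2 CPM in mutant rescue, 5565 ± 47.3 in wild-type rescue, 5320 ± 27.9 in knockdown and 5218 ± 1.06 in control cells (SD, n = 2 each). Genes with MRPL symbols made up 3306 ± 24.6 CPM of this in mutant rescue, 3522 ± 24.1 in wild-type rescue, 3336 ± 5.8 in knockdown and 3267 ± 2.46 in control cells (SD, n = 2 each). Genes with MRPS symbols made up 1911 ± 2.41 CPM in mutant rescue, 2043 ± 23.3 in wild-type rescue, 1984 ± 22.1 in knockdown and 1951 ± 1.4 in control cells (SD, n = 2 each). After removal of the trend of fold change with gene length, described with the rescue and knockdown comparison, the sums were 5102 and 5148 in mutant rescue, 5423 and 5468 in wild-type rescue, 5470 and 5414 in knockdown and 5233 and 5251 in control libraries. On that scale the wild-type rescue and knockdown libraries overlapped and both mutant rescue libraries were the lowest.

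**Figure D1:**
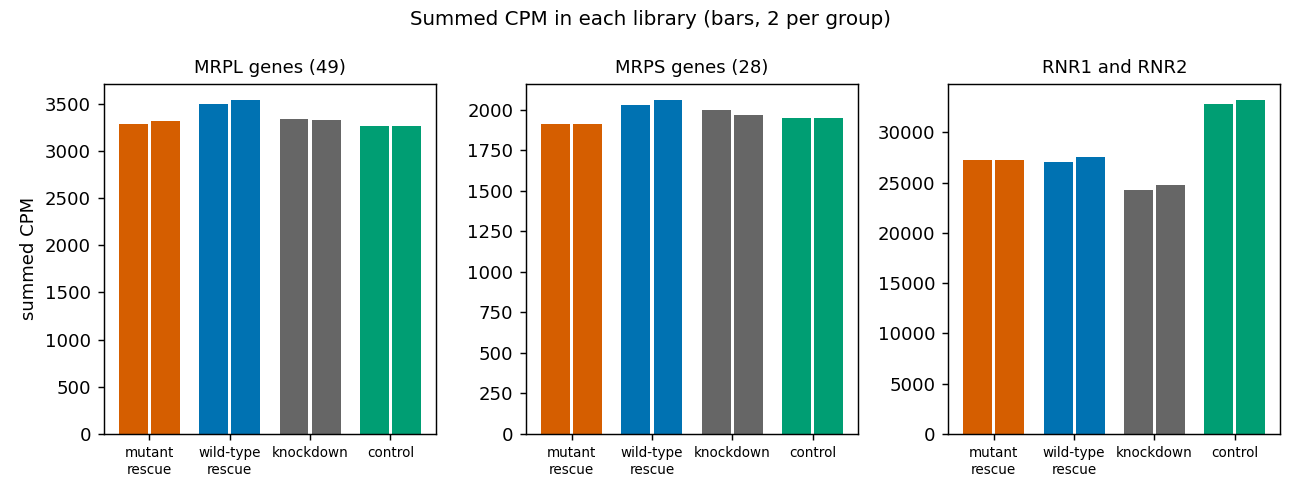
Summed CPM (vertical axis, from 0) of the 49 tested MRPL genes, the 28 tested MRPS genes and the mitochondrial ribosomal RNAs RNR1 and RNR2, with 1 bar per library and 2 bars per group. The wild-type rescue bars of both MRP panels are the highest, while in the RNR panel the control bars are the highest and the knockdown bars the lowest.

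Against the wild-type rescue, the mutant rescue had lower RNA for many MRP genes. Of 77 genes, 36 were lower, 8 were higher and 33 did not pass the test, whereas 20.3% of all tested genes were called lower and 21% higher. The median log2 fold change was -0.11 for MRP genes and 0.00 for all tested genes. In 49 members both mutant libraries were below both wild-type rescue libraries and in 12 both were above, against 33.7% and 34% of all tested genes. Among MRPL symbols 22 of 49 were lower and 5 higher, and among MRPS symbols 14 of 28 were lower and 3 higher. The symbol is not a strict guide to the subunit, as MRPS18A and MRPS36 show below. With DESeq2's Wald test 27 were lower and 3 higher. Over all genes the Wald test called 3991 in either direction, against 6307 by edgeR. Fewer genes were called when a rescue library was left out, both among the members and over all genes.

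Large-subunit proteins with a bacterial counterpart held 17 of the 36 lower genes, with 3 higher among 30 tested. This count, and those of the other parts of the ribosome below, are read against all 77 members, with 36 lower and 8 higher. Of all tested genes 20.3% were lower and 21% higher. MRPL15, a core protein of the large subunit, had 22.1 and 20.7 CPM in mutant rescue, 32.9 and 27.2 in wild-type rescue, 30.6 and 30.9 in knockdown and 34.4 and 38.2 in control libraries. The mutant rescue libraries were the lowest and the control libraries the highest, with no overlap with the other groups. The log2 fold change of mutant over wild-type rescue was -0.48 (SE 0.08, edgeR adjusted p = 5.95e-08). MRPL3, which lies close to the site of peptide bond formation, had 96.9 and 96.6 CPM in mutant rescue, 125 and 124 in wild-type rescue, 125 and 124 in knockdown and 133 and 132 in control libraries. Its mutant rescue libraries stood apart below the rest (-0.36, SE 0.04, edgeR adjusted p = 6.16e-16). MRPL1, a protein of the mobile stalk beside the exit site for transfer RNA, had 21.1 and 19.5 CPM in mutant rescue, 29.8 and 27.1 in wild-type rescue, 27.6 and 26.6 in knockdown and 25.1 and 25.1 in control libraries. It too was lowest in the mutant rescue, by -0.49 on the log2 scale against wild-type rescue (SE 0.08, edgeR adjusted p = 4.68e-08).

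Around the exit tunnel and the membrane anchor of the large subunit, 6 of 8 listed genes were lower and none was higher, with a median log2 fold change of -0.24. MRPL4, which also lines the tunnel, was not among these 8 and was called lower as well. MRPL47, at the tunnel exit, had 50.3 and 53.2 CPM in mutant rescue and 63.9 and 65.4 in wild-type rescue libraries (log2 fold change -0.32, SE 0.05, edgeR adjusted p = 2.41e-08). MRPL24 had 110 and 110 CPM in mutant rescue and 134 and 128 in wild-type rescue libraries (-0.24, SE 0.04, edgeR adjusted p = 8.81e-09). The groups did not overlap for either gene. MRPL45, which holds the ribosome to the inner membrane, had a log2 fold change of -0.11 and did not pass (edgeR adjusted p = 0.0594). The stalk that recruits translation factors and its base, 5 genes, had 1 lower and 1 higher and a median of 0.02. Those counts are near the shares of all tested genes, 20.3% lower and 21% higher, and a difference between parts of the ribosome was not tested. The lower one was MRPL12, which also binds the mitochondrial RNA polymerase, with 139 and 140 CPM in mutant rescue and 155 and 158 in wild-type rescue libraries (-0.17, SE 0.03, edgeR adjusted p = 9.39e-06). The higher one was MRPL10, its anchor on the subunit (0.13, SE 0.05, edgeR adjusted p = 0.0136). Of the 7 genes of the central protuberance 2 were lower and none higher, and of the 20 large-subunit proteins found only in mitochondria 6 were lower and 3 higher. In the annotation 68.2% of the exon bases of MRPL12 are shared with another gene on the same strand, so its counts are uncertain.

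In the small subunit, 8 of 10 proteins found only in mitochondria were lower and 1 was higher, with a median log2 fold change of -0.18, and 5 of 15 with a bacterial counterpart were lower and 1 higher. MRPS9, whose tail reaches into the decoding region, had 35.5 and 36.3 CPM in mutant rescue, 47.0 and 43.0 in wild-type rescue, 50.8 and 51.5 in knockdown and 45.9 and 40.8 in control libraries. Both mutant rescue libraries lay below all others (-0.32 against wild-type rescue, SE 0.06, edgeR adjusted p = 2.15e-06). MRPS17, a protein of the small subunit with a bacterial counterpart, had 21.0 and 19.7 CPM in mutant rescue, 27.9 and 27.9 in wild-type rescue, 26.7 and 26.9 in knockdown and 28.4 and 26.7 in control libraries. It showed the same separation (-0.46, SE 0.08, edgeR adjusted p = 2.49e-07), although 27.0% of its exon bases are annotated as shared with a neighbour on the same strand. MRPS23, found only in mitochondria, had 43.7 and 42.0 CPM in mutant rescue and 53.3 and 53.3 in wild-type rescue libraries (-0.32, SE 0.05, edgeR adjusted p = 2.67e-07).

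Among the 8 higher genes MRPS18A had the largest change. Despite its symbol, MRPS18A is a protein of the large subunit. It had 61.6 and 59.9 CPM in mutant rescue, 44.3 and 45.1 in wild-type rescue, 40.5 and 39.2 in knockdown and 48.3 and 48.7 in control libraries, so the mutant rescue was highest and the knockdown lowest. Its log2 fold change was 0.44 (SE 0.05, edgeR adjusted p = 2.65e-13). In the annotation 47.0% of its exon bases lie opposite RSPH9, whose own row had 0.126 to 0.442 CPM. Its relative MRPS18B had 78.1 and 76.0 CPM in mutant rescue and 83.3 and 83.5 in wild-type rescue libraries (-0.11, SE 0.04, edgeR adjusted p = 0.0294), a call lost without any one of the 4 rescue libraries (adjusted p between 0.0518 and 0.196). MRPS18C, the least abundant, had 6.68 and 5.79 CPM in mutant rescue and 8.44 and 7.02 in wild-type rescue libraries and did not pass (-0.30, SE 0.14, edgeR adjusted p = 0.0786). The 3 relatives, which occupy different places in the mitochondrial ribosome, thus had 1 higher, 1 lower and 1 gene that did not pass in the main fit. The MRPS18B call was also lost with DESeq2's Wald test (adjusted p = 0.152) and with no filter on low counts (edgeR adjusted p = 0.0647). MRPS18C, which did not pass, had a larger fall than MRPS18B.

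The next largest rises were smaller. MRPL33, a short large-subunit protein, had 61.1 and 61.9 CPM in mutant rescue and 54.1 and 52.7 in wild-type rescue libraries (0.21, SE 0.05, edgeR adjusted p = 0.000304). In the annotation 21.1% of its exon bases are shared on the same strand with BABAM2, listed as BRE in the table, which fell by 0.46 on the log2 scale (SE 0.06, edgeR adjusted p = 6.81e-11). For MRPL43, named next, 36.9% of exon bases lie opposite SEMA4G and TWNK, and the strand setting of the counting is not given. TWNK fell by 0.50 (SE 0.09, edgeR adjusted p = 7e-07) and SEMA4G did not pass (0.16, edgeR adjusted p = 0.267). MRPS10, MRPL43 and MRPL14 rose by 0.21, 0.17 and 0.17 on the log2 scale (edgeR adjusted p = 0.0146, 0.019 and 0.0267), and each lost its call with DESeq2's Wald test (adjusted p = 0.118, 0.141 and 0.17) and when a single rescue library was left out. For MRPS10 that was the second mutant or the second wild-type library (adjusted p = 0.0868 and 0.126), for MRPL43 the first mutant or the second wild-type library (0.222 and 0.146), and for MRPL14 the second mutant or the second wild-type library (0.421 and 0.221).

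**Figure D2:**
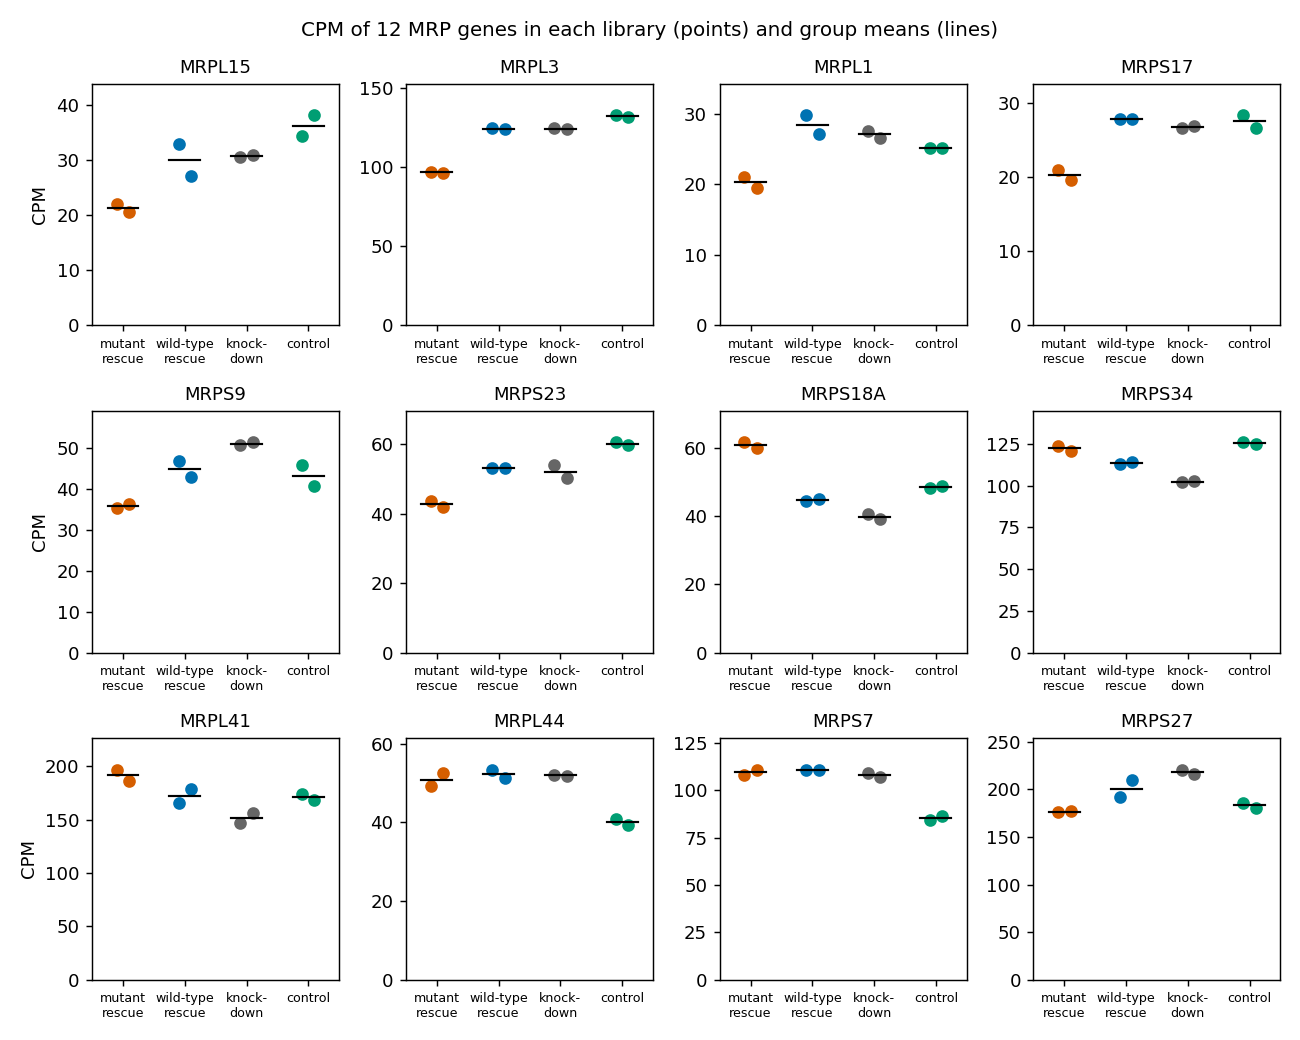
CPM (vertical axes, from 0) of 12 MRP genes in the 4 groups, with 1 point per library and a line at the mean of each group. MRPL15, MRPL3, MRPL1, MRPS17, MRPS9 and MRPS23 are lowest in the mutant rescue, MRPS18A is highest there, and MRPL44 and MRPS7 are lowest in the control.

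**Figure D3:**
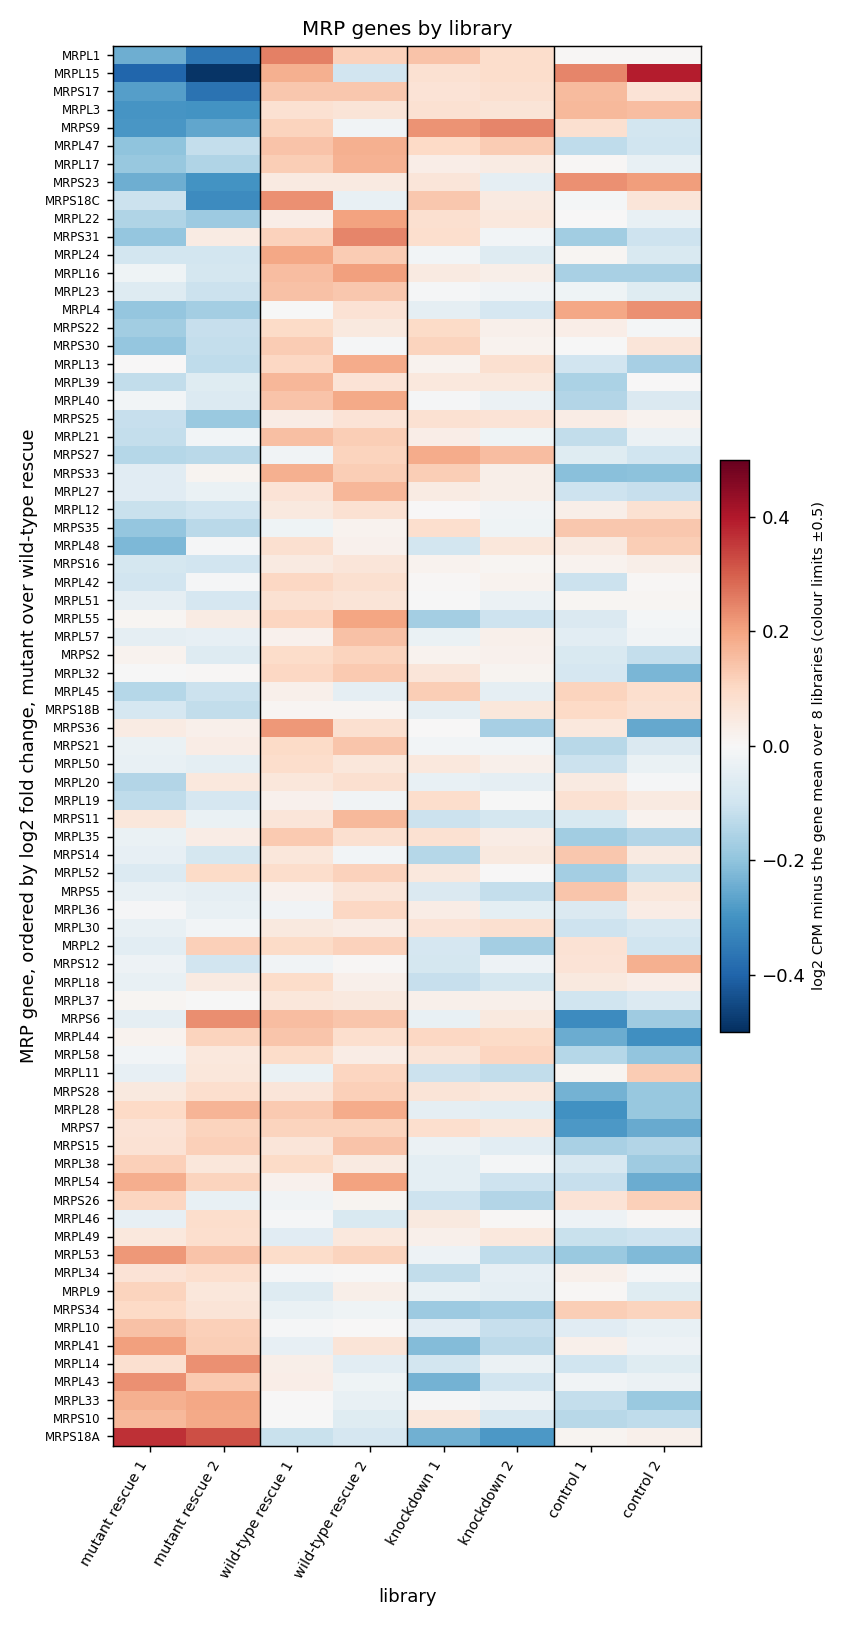
Log2 CPM of the 77 tested MRP genes (rows, ordered by the mutant over wild-type rescue fold change) in the 8 libraries (columns), each minus the mean of the gene over all libraries, with colours limited to ±0.5. Rows at the top, such as MRPL1 and MRPL15, are blue in both mutant rescue libraries, and MRPS18A at the other end is red in both.

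The start regions of several of these genes carry a motif known from MRP genes as a class, the core site CCGGAAG of the ETS family of transcription factors, searched on both strands. RefSeq (GRCh38.p14) gave a promoter, from 250 bases before to 50 after the start, for 70 of the 78 members. The motif lay in 29 of them (41.4%), in 10.67% of all 27305 promoters and in 18.15% of the 11109 promoters of tested genes. Split by the mutant and wild-type rescue comparison, it was in 5 of 7 promoters of higher genes, 12 of 32 of lower genes and 12 of 30 of genes that did not pass. The YY1 site AAGATGGCG was in 13 of the 70 (18.6%) and in 3.74% of the promoters of tested genes. The partial NRF1 site GCGCATGC was in 6 of the 70 (8.6%) and in 5.3% of the promoters of tested genes. The full NRF1 site, which contains the partial one, went the other way, in 1 of the 70 (1.4%) and in 2.22%. The E-box CACGTG bound by MYC was in 7 of the 70 (10.0%) and in 9.96%. These are matches of letters and not measured binding. The 100 bases before the start are shown for 3 genes that were lower in the mutant rescue and 2 that were higher, on the strand of the gene, with the ETS core of either strand in capitals, and they lie at chr3:131502972-131503071, chr3:179604639-179604738, chr17:57850045-57850144, chr6:43687792-43687891 and chr16:1773135-1773234, all on the minus strand.
MRPL3 (lower): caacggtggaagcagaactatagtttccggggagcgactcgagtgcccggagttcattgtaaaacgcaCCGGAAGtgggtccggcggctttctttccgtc
MRPL47 (lower): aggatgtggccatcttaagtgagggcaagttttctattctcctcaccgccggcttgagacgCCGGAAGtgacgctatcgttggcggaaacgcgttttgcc
MRPS23 (lower): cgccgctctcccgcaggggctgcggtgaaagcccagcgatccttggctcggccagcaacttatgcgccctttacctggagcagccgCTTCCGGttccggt
MRPS18A (higher): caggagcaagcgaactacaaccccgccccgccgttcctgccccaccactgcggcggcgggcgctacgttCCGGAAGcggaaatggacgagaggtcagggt
MRPS34 (higher): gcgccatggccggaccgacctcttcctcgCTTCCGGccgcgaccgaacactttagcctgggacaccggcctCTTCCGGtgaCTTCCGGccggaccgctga
The genes shown were taken from members with the core in this stretch, so its presence in each was fixed by that choice. The promoters of MRPL1, MRPS17 and MRPS9, which were lower, and of MRPL41, which was higher, did not hold it.

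GGACT is a core form of the sequence in which the METTL3 enzyme methylates adenosine. MRP transcripts are short, and in the longest coding transcript of each gene in GENCODE 29 the 77 tested members had a median of 1 GGACT, with none in 24.7% of them, against a median of 3 and none in 8.9% of all 13252 tested genes with a transcript. Per kilobase the medians were 0.962 for members and 0.948 for those genes. Between mutant and wild-type rescue, 8 of the 19 members with no GGACT were lower and 2 higher (median log2 fold change -0.07), and 28 of the 58 with at least 1 were lower and 6 higher (median -0.11). Between knockdown and control, 1 of the 19 was lower and 8 higher (median 0.10), and 12 of the 58 were lower and 15 higher (median 0.03). Across the 77 genes the Spearman correlation of fold change with GGACT per kilobase was 0.07 for mutant against wild-type rescue and -0.10 for knockdown against control, a description over genes that share the same libraries. Coding stretches that hold the motif are shown for 4 genes whose RNA changed, with GGACT in capitals.
MRPL3, coding position 889 of 1125: aggacagaatatGGACTgaaagtgtggag
MRPS9, coding position 1102 of 1188: atgagacaagctGGACTacttactactga
MRPS34, coding position 108 of 675: gctctacgcggtGGACTacgagaccttga
MRPL41, coding position 306 of 411: tgccatcgaaaaGGACTtcaaggacggta
Methylation was not measured in these libraries.

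Between knockdown and control cells the MRP genes split in both directions. Of 77 genes, 23 were higher, 13 were lower and 41 did not pass, whereas 22.9% of all tested genes were called higher and 25.1% lower. The median log2 fold change was 0.05 for MRP genes and -0.01 for all tested genes. Both knockdown libraries were above both control libraries in 38 members and below in 21, against 35.1% and 37.4% of all tested genes. Among MRPL symbols 14 were higher and 6 lower, and among MRPS symbols 9 were higher and 7 lower. With DESeq2's Wald test 15 were higher and 7 lower, and over all genes it called 4980 in either direction, against 7337 by edgeR. Without the second control library fewer members were called lower, and fewer genes were called over all genes.

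The largest rise was that of MRPL44, a large-subunit protein with a fold like that of an RNA-cutting enzyme. It had 49.1 and 52.4 CPM in mutant rescue, 53.4 and 51.3 in wild-type rescue, 52.0 and 51.8 in knockdown and 40.8 and 39.2 in control libraries. All 6 libraries with the METTL3 hairpin were above both control libraries (knockdown over control 0.37, SE 0.05, edgeR adjusted p = 1.69e-09). MRPS7, which organises the head of the small subunit, had 108 and 111 CPM in mutant rescue, 111 and 111 in wild-type rescue, 109 and 107 in knockdown and 84.3 and 86.4 in control libraries, the same pattern (0.34, SE 0.04, edgeR adjusted p = 3.51e-13). For both genes none of the comparisons among the 3 groups with the METTL3 hairpin passed (edgeR adjusted p between 0.535 and 0.911), and the rescue lines held METTL3 RNA above the control. MRPS33 and MRPS28 rose by 0.28 and 0.27 on the log2 scale (edgeR adjusted p = 2.66e-07 and 1.48e-05). The counts of MRPS28 are uncertain, since 35.8% of its exon bases are annotated as shared on the same strand.

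MRPS27, a small-subunit protein with repeats that bind RNA, rose in the knockdown and was lower again in both rescues. It had 176 and 177 CPM in mutant rescue, 192 and 210 in wild-type rescue, 221 and 216 in knockdown and 186 and 181 in control libraries. The knockdown libraries were above all others (0.26 against control, SE 0.03, edgeR adjusted p = 1.31e-13). MRPS9 was likewise highest in the knockdown libraries (0.24 against control, SE 0.06, edgeR adjusted p = 0.000119).

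Falls in the knockdown were led by MRPS34 and MRPS18A. MRPS34, a small-subunit protein found only in mitochondria, had 124 and 121 CPM in mutant rescue, 113 and 114 in wild-type rescue, 102 and 103 in knockdown and 126 and 125 in control libraries. The knockdown libraries were the lowest and the control libraries the highest, with the rescues between (knockdown over control -0.29, SE 0.04, edgeR adjusted p = 1.01e-11). MRPS18A fell by 0.28 on the log2 scale (SE 0.06, edgeR adjusted p = 5.64e-06). MRPL4, which lines the exit tunnel, had 95.5 and 97.2 CPM in mutant rescue, 109 and 115 in wild-type rescue, 106 and 103 in knockdown and 125 and 128 in control libraries (-0.27, SE 0.04, edgeR adjusted p = 4.04e-10). MRPS26 fell by 0.22 (SE 0.04, edgeR adjusted p = 1.27e-06). MRPL15 fell by 0.24 (SE 0.07, edgeR adjusted p = 0.00193), a call lost without the second control library (adjusted p = 0.134) and with DESeq2's Wald test (adjusted p = 0.08).

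The knockdown and control comparison shares no library with the comparison of the 2 rescues, so the calls of both could be set side by side. Of the 13 genes lower in the knockdown, 5 were also lower in the mutant than in the wild-type rescue, namely MRPL15, MRPL3, MRPL4, MRPS23 and MRPS35, which is 38.5% of the genes lower in the knockdown and 13.9% of the 36 lower in the mutant rescue. Another 3 of the 13, MRPL41, MRPS18A and MRPS34, were lower in the knockdown and higher in the mutant rescue. Of the 23 genes higher in the knockdown, 9 were lower in the mutant rescue (39.1% and 25% of the lists), and 1, MRPL33, was higher in both. Shares of the knockdown lists are read against the 46.8% of all 77 members that were lower in the mutant rescue and the 8 of 77 that were higher. Shares of the 36 genes lower in the mutant rescue are read against the 13 of 77 members lower in the knockdown, the 23 of 77 higher and the rest that did not pass. The other 22 of the 36 genes lower in the mutant rescue, 61.1%, did not pass between knockdown and control.

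Against the knockdown, the wild-type rescue had 22 MRP genes higher and 2 lower, with 53 that did not pass, whereas 10.8% of all tested genes were called higher and 13.2% lower. The median log2 fold change was 0.07 for MRP genes and 0.01 for all tested genes. In 48 members both wild-type rescue libraries were above both knockdown libraries and in 4 below, against 29.4% and 28.3% of all tested genes. In this comparison fold change ran with gene length over all 15289 tested genes (Spearman rho -0.346), with short genes higher in the rescue, and MRP genes are short, with a median length of 1359 bases in the deposited table against 3194 for all tested genes. The smoothed curve of all genes stood at a log2 fold change of 0.09 at 1351 bases, close to the MRP median. When that trend was removed, 6 MRP genes were higher and 5 lower, 7.9% of all tested genes were called higher and 9.26% lower, and the MRP median was 0.00. The count of higher genes also fell without the second wild-type rescue library or either knockdown library, and to 8 with DESeq2's Wald test. Over all genes the Wald test called 1876 in either direction, against 3673 by edgeR.

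The genes named for this comparison differed in how they bore the removal of the length trend. MRPL55, a large-subunit protein, had 53.2 and 56.6 CPM in wild-type rescue and 43.8 and 45.9 in knockdown libraries (0.29, SE 0.05, edgeR adjusted p = 1.58e-06). MRPL28 had 102 and 106 CPM in wild-type rescue and 90.5 and 89.9 in knockdown libraries (0.21, SE 0.04, edgeR adjusted p = 2.14e-05). MRPS11 rose by 0.21 (SE 0.05, edgeR adjusted p = 0.000619), a call lost without the second wild-type rescue library (adjusted p = 0.0806). These 3 passed with the length trend removed as well, MRPL28 with a log2 fold change of 0.11 (edgeR adjusted p = 0.0491), and MRPL28 did not pass when a replicate block was added to that fit (adjusted p = 0.0513). MRPL2 and MRPS36 rose by 0.23 and 0.22 (edgeR adjusted p = 0.0108 and 0.0275) and did not pass with the trend removed (adjusted p = 0.181 and 0.264), nor without the second knockdown library (0.117 and 0.316) or with DESeq2's Wald test (0.131 and 0.205). MRPL2 was also lost without the second wild-type rescue library (0.0795) and MRPS36 without the first (0.265). MRPS36, now named KGD4 in RefSeq, is a subunit of a mitochondrial dehydrogenase and no longer counted as a ribosomal protein.

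The 2 lower genes were MRPS27 and MRPS9, both of which were higher in knockdown than in control cells. MRPS27 was lower by -0.12 on the log2 scale (SE 0.03, edgeR adjusted p = 0.000433), and without the first wild-type rescue library the adjusted p was 0.208. MRPS9 was lower by -0.19 (SE 0.05, edgeR adjusted p = 0.0047), and the adjusted p was 0.227 without the second wild-type rescue library and 0.0937 with DESeq2's Wald test.

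Against the knockdown, the mutant rescue had 16 MRP genes higher, 21 lower and 40 that did not pass, whereas 25.9% of all tested genes were called higher and 25.8% lower. The median log2 fold change was -0.04 for MRP genes and 0.00 for all tested genes. In 24 members both mutant rescue libraries were above both knockdown libraries and in 36 below, against 37% and 37% of all tested genes. The length trend was present here too (Spearman rho -0.179 over all tested genes). With it removed, 7 MRP genes were higher and 34 lower, 25.2% of all tested genes were called in each direction, and the MRP median was -0.09. With DESeq2's Wald test 10 were higher, and over all genes it called 5629 in either direction, against 7909 by edgeR.

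The 5 largest falls were in genes also called lower against the wild-type rescue, a comparison that shares the mutant libraries. On the log2 scale MRPL15 stood at -0.53 (SE 0.08, edgeR adjusted p = 1.59e-09), MRPS9 at -0.51 (SE 0.06, edgeR adjusted p = 3.43e-14) and MRPL3 at -0.36 (SE 0.04, edgeR adjusted p = 1.88e-16). MRPL1 and MRPS17 fell by 0.42 and 0.40 (edgeR adjusted p = 1.62e-06 and 4.81e-06). Rises were led by MRPS18A (0.61, SE 0.05, edgeR adjusted p = 4.94e-21). MRPL41 had 197 and 186 CPM in mutant rescue, 166 and 179 in wild-type rescue, 147 and 156 in knockdown and 174 and 168 in control libraries (0.34 over knockdown, SE 0.03, edgeR adjusted p = 6.73e-17). MRPS34 rose by 0.25 (SE 0.04, edgeR adjusted p = 2.85e-09) and MRPL43 by 0.35 (SE 0.07, edgeR adjusted p = 1.62e-06). The exons of MRPL43 lie partly opposite SEMA4G, which did not pass here (0.21, edgeR adjusted p = 0.112), and TWNK, which fell by 0.55 (SE 0.09, edgeR adjusted p = 3.39e-08). MRPL53 rose by 0.25 (SE 0.08, edgeR adjusted p = 0.00283) and did not pass with the length trend removed (adjusted p = 0.17), without the second knockdown library (0.0538) or with DESeq2's Wald test (0.0515), and 45.2% of its exon bases are annotated as shared on the same strand.

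For the comparison of the 2 rescues the length trend was nearly flat (Spearman rho 0.0123 over all tested genes and -0.098 over the 77 members). With the trend removed, 34 MRP genes were lower and 9 higher in the mutant rescue, 20.2% of all tested genes were called lower and 21.1% higher, and the MRP median was -0.10. Between knockdown and control the correlation was 0.128 over all tested genes and -0.148 over the members. With the trend removed there, 27 members were higher and 11 lower and the median was 0.08, with 23.3% of all tested genes called higher and 24.2% lower.

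**Figure D4:**
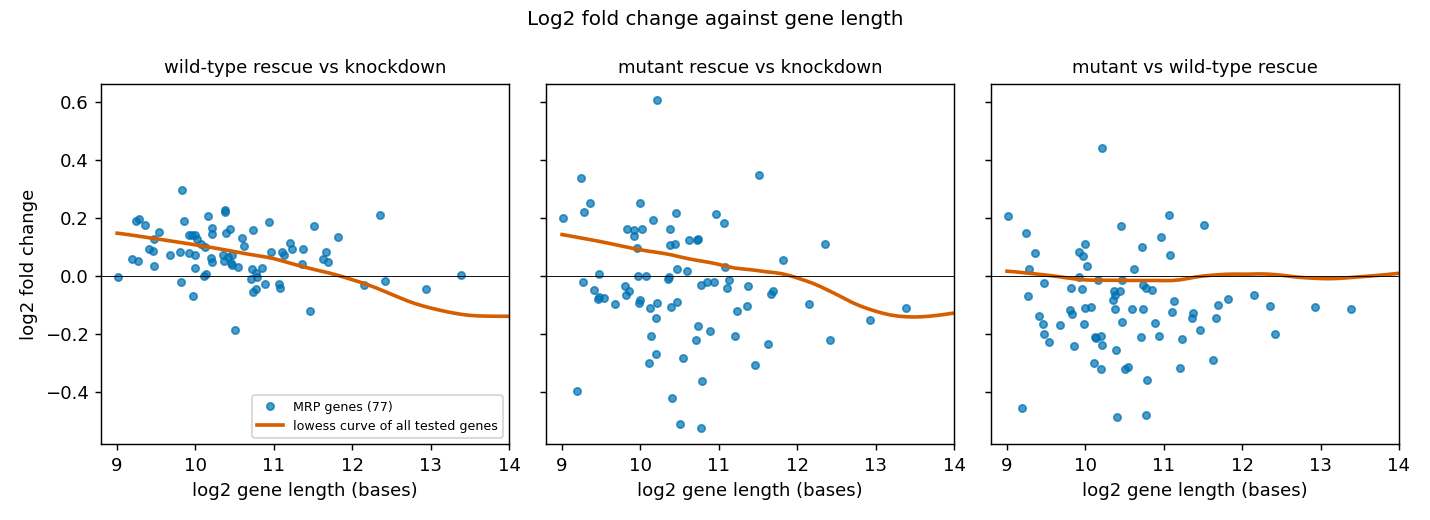
Log2 fold change (vertical axis) against log2 gene length in bases (horizontal axis) for the 77 tested MRP genes (points) and the smoothed curve of all 15289 tested genes (line), in 3 comparisons. The curve is highest at short genes in both comparisons with the knockdown and nearly flat between the 2 rescues, where most MRP points lie below it.

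The wild-type rescue had 39 MRP genes higher and 8 lower than the control, with a median log2 fold change of 0.12, whereas 23.8% of all tested genes were called higher and 25.5% lower. The mutant rescue had 24 higher and 21 lower, with a median of 0.03, whereas 29.1% were called higher and 29.7% lower. These comparisons share the control libraries. Both mutant rescue libraries were above both control libraries in 32 members and below in 28 (38.7% and 39% of all tested genes), and both wild-type rescue libraries in 48 and 12 (35.9% and 36.8%). With the length trend removed, the wild-type rescue had 32 higher and 11 lower (24.1% and 24.5% of all tested genes) with a median of 0.08, and the mutant rescue 19 higher and 26 lower (29.4% and 28.8%) with a median of -0.03. Of the 8 genes listed for the exit tunnel and membrane anchor, the mutant rescue had 1 higher and 3 lower than the control, and the wild-type rescue 7 higher and none lower. MRPL4, which also lines the tunnel, was not among these 8. It was lower than the control in the mutant rescue (-0.39, edgeR adjusted p = 1.14e-17) and in the wild-type rescue (-0.17, edgeR adjusted p = 2.99e-05). DESeq2's Wald test called 3 lower in the wild-type rescue, and fewer were also lower without the second wild-type rescue library. Over all genes the Wald test called 5176 between wild-type rescue and control, against 7531 by edgeR.

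Rises over control were led in both rescues by genes lowest in the control libraries. MRPL28, a large-subunit protein with a bacterial counterpart, had 100 and 105 CPM in mutant rescue, 102 and 106 in wild-type rescue, 90.5 and 89.9 in knockdown and 75.7 and 81.9 in control libraries. It was lowest in the control libraries and highest in the rescues, by 0.39 for mutant rescue over control (SE 0.04, edgeR adjusted p = 6.45e-15) and 0.40 for wild-type rescue over control (SE 0.04, edgeR adjusted p = 7.57e-16). MRPS6 rose by 0.35 in the mutant rescue (SE 0.10, edgeR adjusted p = 0.00122), lost without the second mutant library (adjusted p = 0.174), and by 0.39 in the wild-type rescue (SE 0.10, edgeR adjusted p = 0.000237). The largest fall was that of MRPL15 in the mutant rescue (-0.76, SE 0.08, edgeR adjusted p = 1.11e-17), with -0.28 in the wild-type rescue (SE 0.07, edgeR adjusted p = 0.000222), a call lost there without the second wild-type library (adjusted p = 0.156). MRPS23 and MRPL4 fell by 0.49 and 0.39 in the mutant rescue and by 0.17 and 0.17 in the wild-type rescue.

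**Figure D5:**
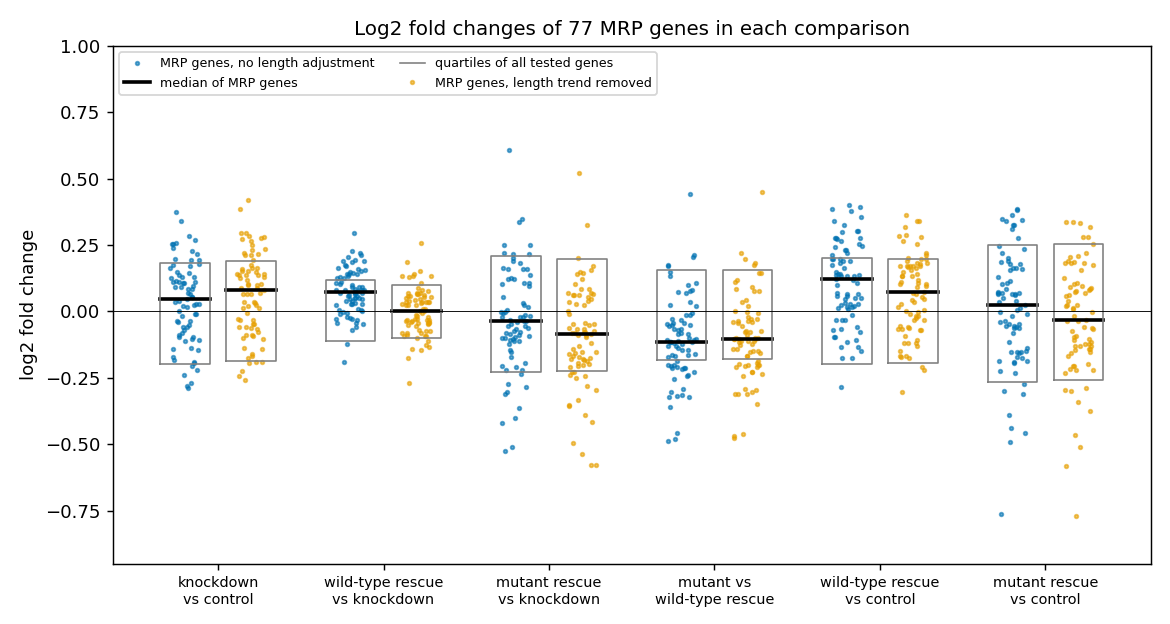
Log2 fold changes (vertical axis) of the 77 tested MRP genes (points) in the 6 comparisons (horizontal axis), without and with removal of the length trend, with the median of the MRP genes (black lines) and the quartiles of all tested genes (grey boxes). The mutant over wild-type rescue points have a median of -0.11 without and -0.10 with the removal, while the wild-type rescue over knockdown median goes to 0.00 with it.

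The ribosomal RNAs on which these proteins assemble are listed as RNR1 and RNR2 in the table and match the small-subunit and large-subunit mitochondrial ribosomal RNAs in length. Their summed level was 27270 and 27300 CPM in mutant rescue, 27050 and 27540 in wild-type rescue, 24230 and 24760 in knockdown and 32790 and 33200 in control libraries. The control libraries were the highest, the knockdown libraries the lowest and the rescues overlapped. Between knockdown and control RNR1 fell by 0.60 and RNR2 by 0.41 on the log2 scale (SE 0.02 each, edgeR adjusted p = 1.04e-49 and 3.53e-52). Between mutant and wild-type rescue the log2 fold changes were 0.12 for RNR1 (SE 0.02, edgeR adjusted p = 4.04e-08) and -0.01 for RNR2 (edgeR adjusted p = 0.636). The share of MRP genes in all counts moved otherwise, with 0.5383% and 0.5318% in knockdown libraries against 0.513% and 0.5134% in control libraries. Libraries were made with a messenger RNA kit, and how much ribosomal RNA it carried through in each library was not tested.

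Some proteins of the mitochondrial ribosome have other symbols. Their counts, and those of the lists that follow, are read against all tested genes. Of those, 20.3% were lower and 21% higher in the mutant than in the wild-type rescue, and 25.1% lower and 22.9% higher in knockdown than in control cells. Of 5 tested (DAP3, PTCD3, AURKAIP1, CHCHD1 and GADD45GIP1), 3 were lower and none higher in the mutant than in the wild-type rescue, led by PTCD3 (-0.21, SE 0.04, edgeR adjusted p = 1.64e-07) and GADD45GIP1 (-0.20, SE 0.05, edgeR adjusted p = 0.000102). In the knockdown 3 were higher and none lower than in the control, led by CHCHD1 (0.30, SE 0.05, edgeR adjusted p = 8.78e-07). Of 29 assembly and ribosomal RNA processing factors, 9 were lower and 4 higher in the mutant than in the wild-type rescue, and 9 were lower and 8 higher in knockdown than in control cells. The GTPase MTG1 fell by 0.35 between the rescues (edgeR adjusted p = 0.000408), and the RNA helicase DDX28 by 0.57 in the knockdown (edgeR adjusted p = 2.92e-10). Of 16 translation factors, 9 were lower and 2 higher in the mutant than in the wild-type rescue, among them the initiation factor MTIF2 (-0.36, SE 0.06, edgeR adjusted p = 3.19e-07) and the elongation factor TSFM (-0.30, SE 0.05, edgeR adjusted p = 1.27e-06). In the knockdown 6 were higher and 2 lower, with the elongation factor GFM1 at 0.48 (SE 0.04, edgeR adjusted p = 5.2e-25).

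Of 22 genes for mitochondrial aminoacyl-tRNA synthetases and the related amidotransferase, which load the transfer RNAs the ribosome uses, 14 were lower and 3 higher in the mutant than in the wild-type rescue, among them MARS2 (-0.47, SE 0.09, edgeR adjusted p = 1.67e-06). Of 14 genes of mitochondrial transcription, replication and RNA stability, 7 were lower and 1 higher, and SSBP1, the single-stranded DNA-binding protein, fell by 0.56 (SE 0.04, edgeR adjusted p = 1.02e-23). The 76 tested nuclear genes of the respiratory chain had 26 lower and 5 higher with a median of -0.03. Of all tested genes 20.3% were lower and 21% higher in this comparison. The 76 tested cytosolic ribosomal protein genes had 30 higher and 5 lower and a median of 0.05, such as RPS19 (0.15, SE 0.02, edgeR adjusted p = 4.13e-10). MYC, a transcription factor known to raise many ribosome genes, had 213 and 221 CPM in mutant rescue, 312 and 313 in wild-type rescue, 328 and 328 in knockdown and 512 and 519 in control libraries. It was lowest in the mutant rescue and highest in the control libraries. The summed CPM of the 76 cytosolic ribosomal protein genes ran the other way, with means of 46160 in mutant rescue, 44710 in wild-type rescue, 41490 in knockdown and 39940 in control cells. The summed CPM of the 77 MRP genes had another order. It was 5201 and 5233 in mutant rescue, 5532 and 5599 in wild-type rescue, 5340 and 5300 in knockdown and 5217 and 5219 in control. The part of MYC in these levels was not tested.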

How the data were processed

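RNA-seq counts from 8 LNCaP libraries were used. Per the labels, TRIzol was used to extract RNA and a strand-specific messenger RNA kit to make libraries. The submitters' processing notes name the build hg19 and the tools STAR 2.5.2b, CASAVA, featureCounts and DESeq2, and the strand setting of the counting is not given in the sources used here. The authors deposited raw counts per gene, and a column of another kind, the gene length in bases.

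Counts were tested with edgeR 4.0.16 in R 4.3.3: filterByExpr by group (minimum count 10, minimum total 15) kept 15289 of 27140 genes, libraries were scaled by TMM, and all 8 libraries entered a single robust quasi-likelihood fit with a mean for each group. The SE is the size of the log2 fold change over the root of the F statistic. The threshold was an adjusted p (Benjamini-Hochberg, all tested genes) under 0.05. CPM and RPKM were computed from the deposited counts and lengths. Fits were checked on simulated counts.

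The members, the gene lists and the tests were chosen with earlier results of these data known. The genes named in each comparison were the 5 largest rises and falls that passed, had at least 5 CPM on average and did not overlap between the groups' libraries, with MRPL12, the 3 MRPS18 genes, METTL3 and MYC, and, in the other lists, the 3 largest or all of a list of up to 8. Members of the exit tunnel and stalk lists, and MRPS35 and MRPL45, were named after their values were seen. Alternatives were TMM against DESeq2 1.42.0 size factors, DESeq2's Wald test, no filter, only the groups compared, a replicate block, removal of the length trend (a lowess curve per library, span 0.3, as an offset), and leaving out each library. The replicate numbers were not taken to pair the libraries, with correlations of same-numbered deviations between -0.0424 and 0.025 over all tested genes and between -0.00829 and 0.183 over the MRP genes. Exon overlaps and transcripts are from GENCODE 29, which is of another build, so no coordinates come from the deposited table. In that annotation 15 tested members share exon bases with another gene on the same strand and 29 lie partly opposite one.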

Additional observations from a re-analysis of the deposited data

How the results depend on the processing

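Counts are of MRP genes called. Over all genes, too, DESeq2's Wald test called fewer than edgeR. Between the rescues it called 3991 against 6307, and between knockdown and control 4980 against 7337. With DESeq2's Wald test 15 were higher and 7 lower in knockdown against control, 8 higher and 1 lower in wild-type rescue against knockdown, 10 higher in mutant rescue against knockdown, 3 higher in mutant against wild-type rescue and 3 lower in wild-type rescue against control; the other 5 counts were within 1.5 times. With the length trend removed, wild-type rescue against knockdown had 6 higher and 5 lower, and mutant rescue against knockdown 7 higher and 34 lower. The summed CPM of the 77 genes was then 5102 and 5148 in mutant rescue, 5423 and 5468 in wild-type rescue, 5470 and 5414 in knockdown and 5233 and 5251 in control libraries. With DESeq2 size factors the control sums were 5206 and 5211. MRPS18B, with -0.11 in mutant rescue against knockdown, changed sign to 0.0248 with the length trend removed, and to 0.0244 with the replicate block as well, and the cause was not tested.

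With the replicate block all 12 counts were the same as without it, for example 36 lower in mutant against wild-type rescue. With the replicate block and the length trend removed, wild-type rescue against knockdown had 5 higher and 5 lower, and mutant rescue against knockdown 7 higher and 34 lower.

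Leaving out each library in turn gave 18 to 23 higher and 8 to 14 lower in knockdown against control, 9 to 23 higher and 1 to 2 lower in wild-type rescue against knockdown, 12 to 16 higher and 17 to 22 lower in mutant rescue against knockdown, 5 to 8 higher and 24 to 36 lower in mutant against wild-type rescue, 31 to 39 higher and 4 to 8 lower in wild-type rescue against control, and 20 to 24 higher and 17 to 21 lower in mutant rescue against control. The lowest counts came without the second control library (8), the second wild-type rescue library (9 and 4), either wild-type rescue library (1) and the first mutant rescue library (5 and 24). With 2 libraries a group, sums and levels carry no test.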
